A study of Medicago sativa with 24 samples.

Results

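Diploid (2x) and tetraploid (4x) full-sib hybrids of Medicago sativa, the species of cultivated alfalfa, were compared for gene transcription in leaves. The members were the 18 arrays of the 6 hybrid genotypes, of 24 arrays in the series, chosen by the genotype in their labels. There were 3 diploid hybrids (S24-2x, S16-2x and S8-2x) and 3 tetraploid ones (S60-4x, S48-4x and S29-4x). All 6 came from 1 cross of PG-F9, a 2x plant of subsp. falcata that forms 2n eggs, with 12P, a 2x plant of coerulea and falcata origin that forms 2n pollen. The 4x hybrids carried 2n gametes of both parents (bilateral sexual polyploidization, BSP), whereas the 2x hybrids carried reduced gametes. Parents and hybrids were propagated as cuttings, grown together in a screen house without any treatment, and sampled as young fully expanded leaves before flowering. For each of the 3 replicates of a genotype, leaves of 2 cloned plants were pooled and the RNA was hybridized to 1 array. Each genotype therefore goes back to 1 seedling, and each ploidy level to 3. A difference between the ploidy levels is a difference between these 3 plants and those 3 plants, in which ploidy and the alleles drawn by each seedling cannot be told apart.

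A 2n gamete keeps the chromosome number of the plant that formed it, so that a BSP plant receives an unreduced number of chromosomes from both sides. The study states that alleles can still segregate in these 2n gametes, so that a BSP plant need not hold all alleles of a parent. Compared with a 2x full sib, it has more copies of every gene and can hold more of the alleles of each parent. In alfalfa, which is naturally tetraploid, polyploid plants are known for large leaves, cells and stomata.

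The arrays carried probes designed on M. truncatula sequences, and alleles of M. sativa that match a probe less well give less signal. The part of such mismatches in the differences was not tested. Entries of 1 gene family may also share targets, so entries with the same annotation are not independent of each other. The normalized intensity of a gene is relative to the rest of the transcriptome of the same leaf, so that RNA per cell was not measured, and fewer cells of a type and less RNA per cell cannot be told apart in a pooled leaf. The median intensity of an array was between 499 and 528, and in the hybrids between 70.2% and 79.1% of the genes exceeded the highest negative control of their array. The labelled tissue was set beside its markers. Of the 11 entries for light harvesting and photosynthesis, 7 called entries (6 for chlorophyll a/b binding proteins and 1 for photosystem I subunit II) had means between 10.8 and 14.7 on the log2 scale in every hybrid, whereas Rubisco small chain 3A (TC198142) and the chlorophyll a/b binding protein TC183902 had 2x means of 5.81 and 5.69. Of the entries not called, THYLAKOID FORMATION1 (TC182622) was at 7.26 to 8.91 in the 2x arrays. Among the root nodule markers, early nodulin 10 (TC193898) was at 5.33 to 7.59, around the background of 6.32, whereas early nodulin 12B (TC191278) was at 11.02 to 12.0 in every hybrid. MtN5 (TC180317) was at 6.76 to 9.17 in the 2x arrays, above the background. The markers given are examples from both lists, chosen after their values were seen, so that they do not test the tissue label. The background is the mean log2 intensity of the brightest of 11 negative controls. All values given for a gene are log2 intensities unless stated otherwise, and all differences are 4x minus 2x.

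The question of the comparison was which genes are transcribed at another level when full sibs differ in ploidy. A gene was called when the limma adjusted p was under 0.05 and the log2 difference exceeded 1 in either direction. With the 9 arrays of each ploidy level as observations, 611 of 41527 genes were called (1.47%), of which 342 were higher in the 4x hybrids (0.824%) and 269 lower (0.648%). The median log2 difference was 1.29 among the former, -1.21 among the latter and -0.01 over all genes. Large differences were mostly in the direction of the 4x hybrids, since of the 47 called genes with a log2 difference over 2 in either direction 36 were higher and 11 lower in the 4x hybrids. For 96 called genes the mean of 1 ploidy level lay below the background, which limits their differences. Arrays of a genotype share a plant, so that the p-values over arrays measure the spread between arrays and not only between seedlings. With genotype as a random block, 318 of the 611 genes (0.766% of all genes tested) were called, 190 higher and 128 lower in the 4x hybrids. This fit gives all genes the same correlation between arrays of a genotype (0.34). Beside the SD within genotypes (0.39), genotype means of called genes had median SDs of 0.47 (2x) and 0.39 (4x). Over all genes these were 0.24, 0.20 and 0.17, so that the fit can be lenient for called genes. The CCAAT-binding entry TC178604 was called by it (limma adjusted p = 0.03), although its limma adjusted p over genotype means was 0.36. With the 6 genotype means as observations, 6 genes were called (0.0144%), all higher in the 4x hybrids. For all other genes named below, the SE and the adjusted p are over arrays unless stated otherwise. None of these was called over genotype means.

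Within the 611 genes, the 2x and the 4x arrays did not overlap for 147 (0.354% of all genes, 76 higher and 71 lower in the 4x hybrids), and 557 of all genes tested had such arrays (1.34%). The genotype means did not overlap for 474 called genes, whereas 8035 of all genes (19.3%) had means of 1 ploidy level that all lay above those of the other. When each genotype was left out in turn, 200 genes were called every time (0.482%), 125 higher and 75 lower in the 4x hybrids. The number called depended most on S24-2x, without which it was 1070 (626 higher and 444 lower). Leaving out S16-2x gave 471 genes and leaving out S48-4x 459, and of the 611 genes 285 and 258 lost their call, respectively. S24-2x was the 2x hybrid nearest to the 4x mean for 187 of the 342 genes higher in the 4x hybrids and for 143 of the 269 lower ones. S16-2x was the farthest of the 2x hybrids for 175 and 163 of them, and S48-4x was the 4x hybrid farthest from the 2x mean for 178 and 153.

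Each pair of hybrids was then compared by a contrast of their genotype means, each over 3 arrays. All pairs came from the same fit to the 18 hybrid arrays, in which the variance was pooled over the 6 genotypes. Between ploidy levels, the genes called numbered from 845 (2.03%) for S24-2x with S60-4x to 3814 (9.18%) for S16-2x with S48-4x. Within the 2x hybrids the 3 pairs gave 1404, 1669 and 1566 genes, and within the 4x hybrids 745 for S29-4x with S60-4x, 1365 for S48-4x with S60-4x and 1594 for S29-4x with S48-4x. The numbers between and within ploidy levels overlapped. S24-2x and S60-4x, which differ in ploidy, had fewer genes called between them than any pair of 2x hybrids.

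**Figure D1:**
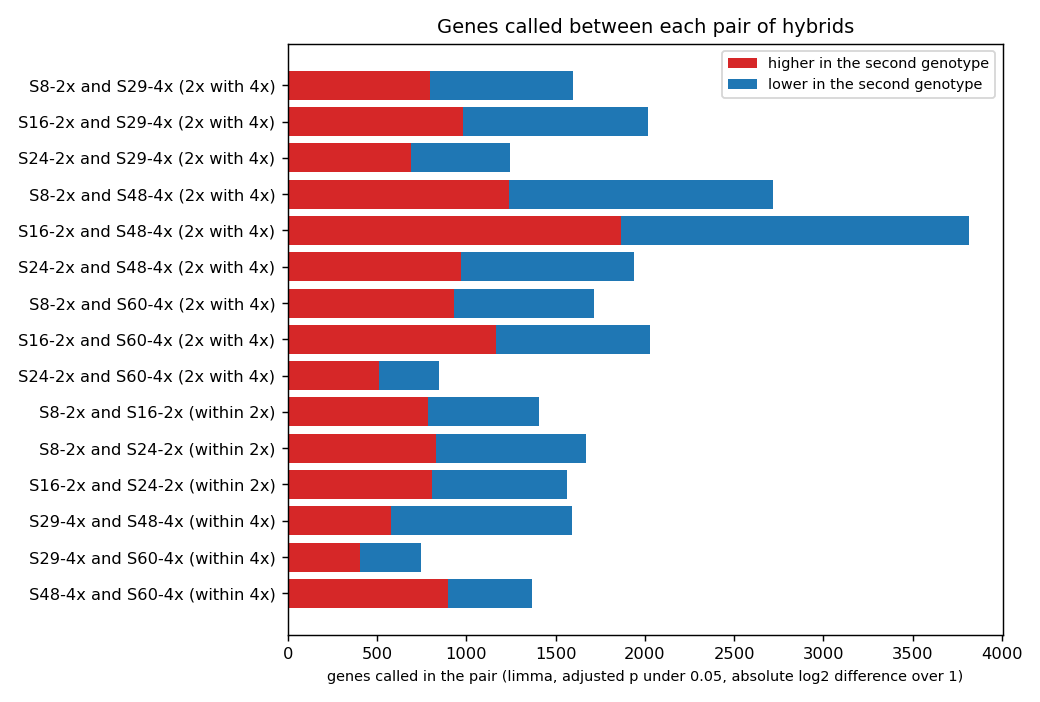
Number of genes called in each of the 15 pairs of hybrids (limma contrasts with the variance pooled over the 6 genotypes), divided into genes higher and lower in the second genotype. The 9 pairs of a 2x with a 4x hybrid run from 845 to 3814 genes, and the 6 pairs within a ploidy level from 745 to 1669.

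The correlation between arrays averaged 0.990 for 18 pairs of arrays of the same genotype, 0.979 between 2x genotypes, 0.983 between 4x genotypes and 0.978 between ploidy levels. These are correlations across genes, which are not independent. For the median gene, the SD among arrays of a genotype was 0.24, the SD among the 2x genotype means 0.20 and the SD among the 4x genotype means 0.17. Among the 611 called genes these values were 0.39, 0.47 and 0.39.

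The 9 pairs of a 2x with a 4x hybrid share genotypes, and 38 genes (0.0915%) were called in all 9 in the same direction, 28 of them higher (0.0674%) and 10 lower (0.0241%) in the 4x hybrids. All 38 were among the 611. Most called genes differed in part of the pairs, with 197 called in 6 pairs, 139 in 5 and 77 in 4. The 38 genes included 5 of the helicase entries described with the chromatin genes, a chlorophyll a/b binding protein (TC195187), a cytochrome P450 (TC185121), a glutathione S-transferase (TC175199), a helix-loop-helix DNA-binding protein (TC180704) and the replication licensing factor mcm2 (TC173466). These were picked from the 38 for having an annotated function, after their values were seen.

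The 6 genes called with genotype means are those that passed both thresholds when 3 genotype means were tested against 3. Other genes had differences well beyond their SE over genotype means without passing, such as NP7266737 (3.14, SE 0.32, limma adjusted p = 0.092). All 6 were also called in all 9 pairs, and in none did the 2x and 4x arrays overlap. TC176960 is annotated as a cytosine-specific methyltransferase, the class of enzymes that methylate DNA. Its 2x arrays had a lowest, median and highest value of 8.35, 8.98 and 9.56, and its 4x arrays of 10.99, 11.49 and 11.73. The 4x mean was 5.18 times the 2x mean (log2 difference 2.37, SE 0.15, limma adjusted p = 3.4e-08 over arrays and 0.0493 over genotype means). PG-F9, at 11.84, was as high as the 4x hybrids, and 12P, at 9.71, lay just above the highest 2x array. NP7257220, annotated as helicase-like, a class of proteins that unwind nucleic acids, was at 6.06, 6.94 and 7.68 in the 2x arrays and at 8.74, 9.06 and 9.70 in the 4x arrays. Its log2 difference was 2.26 (SE 0.20, limma adjusted p = 1.74e-06 over arrays and 0.0468 over genotype means). Here 12P, at 9.81, was at the level of the 4x hybrids and PG-F9, at 5.97, below the lowest 2x array.

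TC186166 is annotated as the Nod factor perception protein, in M. truncatula a receptor-like kinase of the root that takes part in the response to rhizobia. In these leaves it was at 4.74, 5.15 and 5.59 in the 2x arrays, below the background, and at 6.37, 7.23 and 7.56 in the 4x arrays, just above it. Its log2 difference was 1.96 (SE 0.15, limma adjusted p = 3.16e-07 over arrays and 0.0468 over genotype means), and both parents, at 7.35 and 7.55, were at the 4x level. The other 3 genes have no annotated function. NP7260844 was at 6.02, 6.25 and 6.90 in the 2x arrays and at 8.57, 8.76 and 9.08 in the 4x arrays, a 5.58-fold higher mean (log2 difference 2.48, SE 0.12, limma adjusted p = 8.18e-10 over arrays and 0.0300 over genotype means). Both parents exceeded even the 4x mean, with 9.55 in PG-F9 and 9.02 in 12P. NP7264547 was at 7.21, 7.67 and 8.07 in the 2x arrays and at 9.39, 9.56 and 10.19 in the 4x arrays (log2 difference 1.99, SE 0.13, limma adjusted p = 3.42e-08 over arrays and 0.0468 over genotype means). NP7255911 was bright throughout, at 10.08, 10.76 and 10.98 in the 2x arrays and 12.02, 12.30 and 12.39 in the 4x arrays (log2 difference 1.56, SE 0.10, limma adjusted p = 3.42e-08 over arrays and 0.0493 over genotype means).

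Over genotype means, 5390 genes had an unadjusted limma p under 0.05, 2595 higher and 2795 lower in the 4x hybrids, and 540 of them also exceeded the log2 threshold. The 6 calls are close to the adjusted threshold, and without S16-2x, S29-4x or S48-4x no gene was called. An exact two-sided permutation test of 3 genotype means against 3 cannot go below 0.1, and it gave 0.1 for 46 of the 56 genes named under the rule for named genes. A value of 0.1 says only that all 3 genotype means of a level lie beyond those of the other. Genes named for arrays without overlap reach it by that rule, so that the count is a description.

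**Figure D2:**
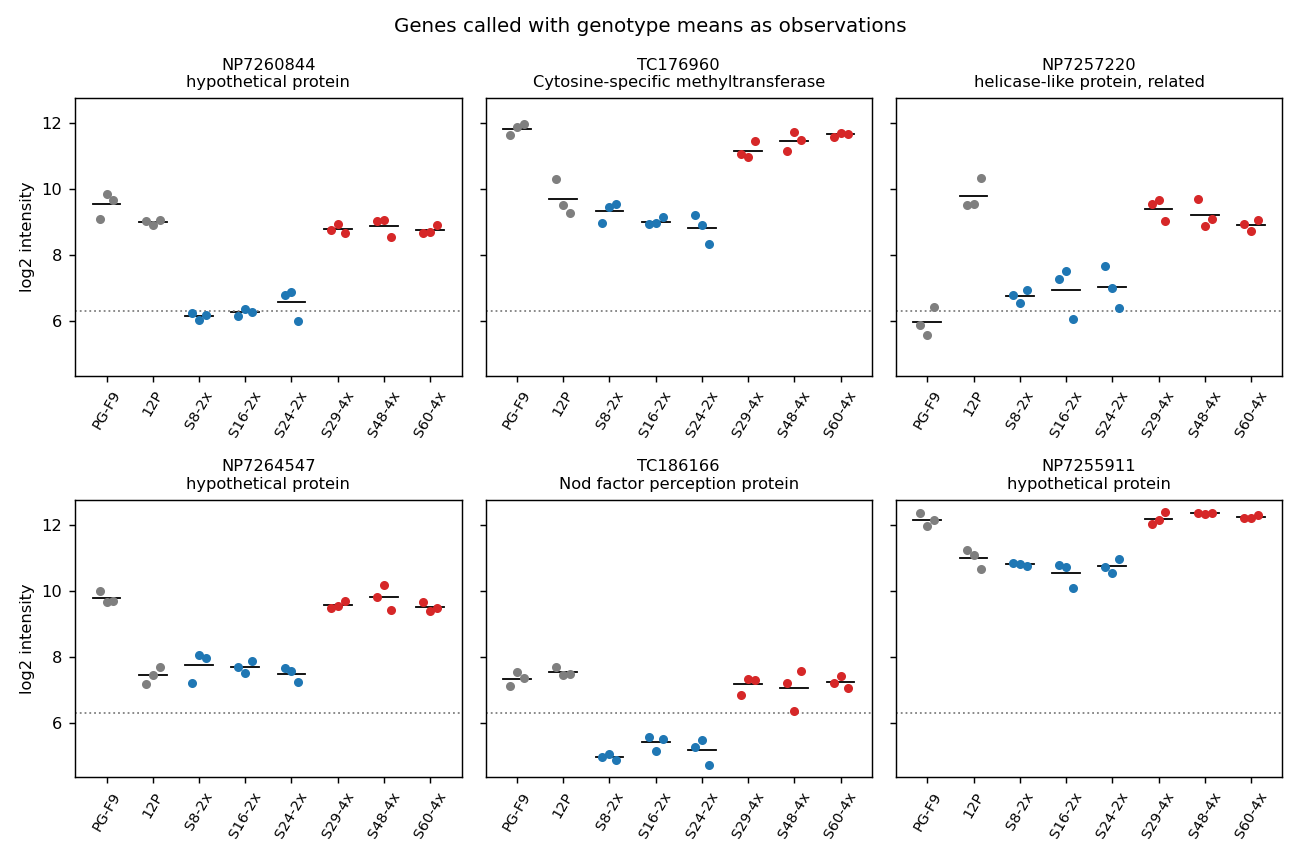
Log2 intensity of the 6 genes called with genotype means as observations, in the parents and hybrids. Points are arrays (3 per genotype), bars are genotype means and the dotted line is the background of 6.32. In each panel the 9 arrays of the 4x hybrids lie above the 9 arrays of the 2x hybrids.

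Annotations were available for 1019 genes, all of which the study had listed as changed in some comparison of these samples, and 559 of them (54.9%) were called here. A share of called members near that value is therefore no result about a gene group, and the counts for the groups are a description. The share was 50% for terpenoid genes, cytochrome P450 enzymes, glycosyltransferases, alternative oxidases and nodulins. It was 45.5% for heat shock proteins and chaperones, 45% for transporters and 42.9% for hormone genes. For entries with a disease resistance, TIR, NBS or LRR annotation it was 41.2%. Cell wall genes and starch and sugar genes had 40%, and ribosomal and translation proteins 22.2%. Transcription factors had 56.4%, retroelements and transposons 60%, and all other groups between 80% and 87.5%. A function was named for 293 called genes, 164 higher and 129 lower in the 4x hybrids, of which 268 are not among the 25 genes that the study tabulated for this comparison. All 25 were called. The median log2 difference was 0.46 over the annotated genes.

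**Figure D3:**
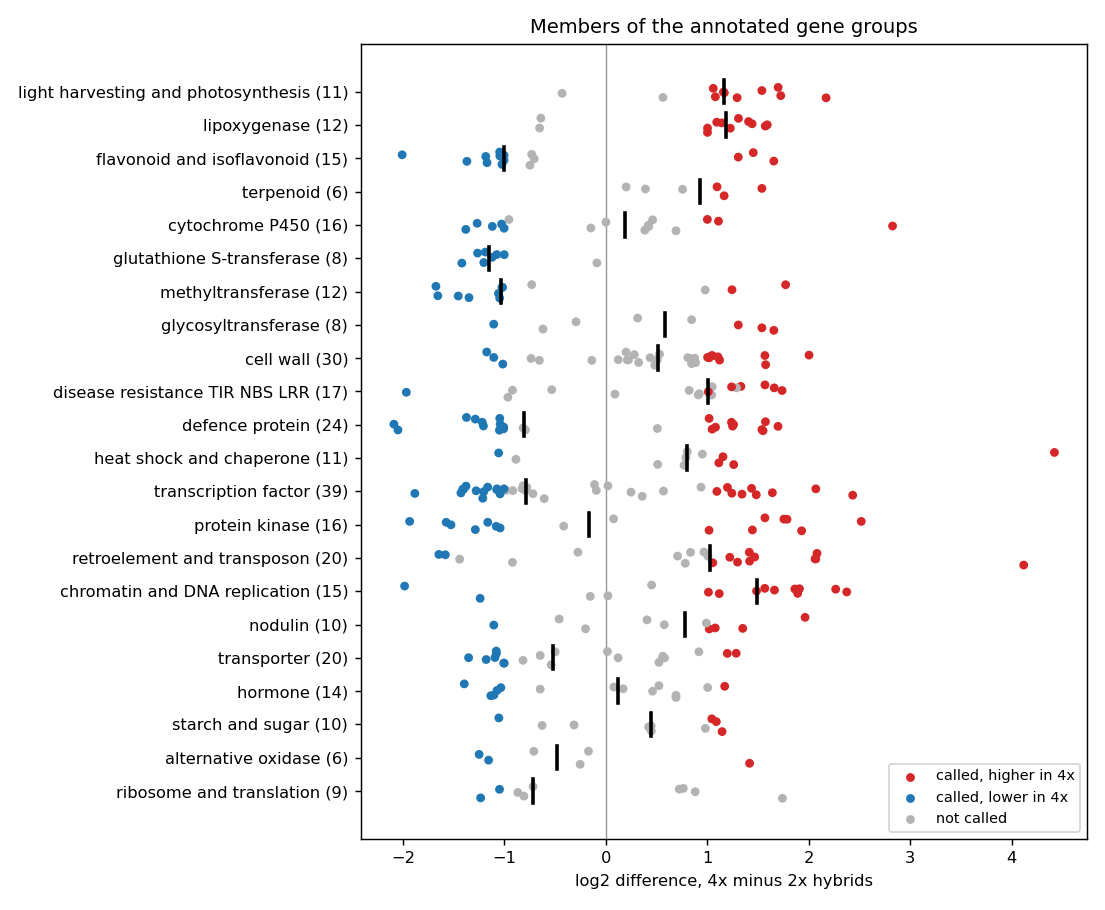
Log2 difference of 4x minus 2x hybrids for each member of 22 annotated gene groups, with the number of members in parentheses. Points are genes, red where called higher and blue where called lower in the 4x hybrids, grey where not called, and the black line is the median, which runs from 1.48 for chromatin and DNA replication to -1.15 for glutathione S-transferases.

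Genes of chromatin and DNA replication had the highest median log2 difference of the 22 gene groups, 1.48. Of 15 members, 10 were higher and 2 lower in the 4x hybrids. Arrays of the ploidy levels did not overlap for 9 of the 12, 9 were called whichever genotype was left out, and 10 were called with genotype as a random block. Of all 611 called genes, these numbers were 147, 200 and 318. The 12 entries are not independent of each other, since most of them are helicases. Besides the methyltransferase TC176960, 7 called entries were helicases. TC192567, TC194459 and TC190291 had log2 differences of 1.91, 1.89 and 1.86 (limma adjusted p = 2.12e-05, 2.75e-05 and 3.66e-06). The 7 helicase entries, which may share targets, had means of 5.97 to 7.28 in PG-F9, 6.06 to 8.86 in the 2x hybrids, 7.27 to 10.29 in the 4x hybrids and 7.57 to 10.67 in 12P. In each of them except NP7274254, PG-F9 lay below the 2x hybrids, these below the 4x hybrids, and 12P above all of them. The SET DOMAIN GROUP 41 protein (TC197527), of a family of histone methyltransferases, was at 8.84, 9.03 and 9.74 in the 2x and 10.21, 10.83 and 9.61 in the 4x genotypes, so that S60-4x lay among the 2x hybrids. Its log2 difference was 1.01 (limma adjusted p = 0.00524).

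The 2 members that were lower in the 4x hybrids belong to the copying and packing of DNA. Factor mcm2 (TC173466), tabulated by the study and a subunit of the helicase that opens origins of replication, was at 10.15, 10.51 and 10.84 (lowest, median and highest) in the 2x arrays and at 6.57, 8.81 and 9.55 in the 4x arrays, without overlap. The log2 difference was -1.98 (limma adjusted p = 0.00116), and S29-4x, at 7.22, was at the level of PG-F9, at 7.56. Histone H3.2 (TC181956), a core histone, had genotype means of 10.17, 9.23 and 9.42 in the 2x and 8.77, 7.61 and 8.73 in the 4x hybrids (log2 difference -1.24, limma adjusted p = 0.00561).

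Of 20 retroelement and transposon entries, 10 were higher and 2 lower in the 4x hybrids, with a median log2 difference of 1.03, and 7 were called with genotype as a random block. The entry with the largest log2 difference among them, TC172909, carries the zinc knuckle and aspartic protease domains of retroviral-type polyproteins. It was at 5.45, 6.87 and 7.94 in the 2x arrays and at 10.18, 11.14 and 11.39 in the 4x arrays, and the latter were at the level of PG-F9 (11.17). Its 4x mean was 17.4 times the 2x mean (log2 difference 4.12, SE 0.31, limma adjusted p = 3.04e-07 over arrays), the largest among the genes without overlap that have an annotated function. Over genotype means its SE was 0.43 and its limma adjusted p 0.092, so that it was not called. Entries of hAT transposons, which move as DNA, divided the 2x hybrids. The transposase NP7253187 had means of 9.93 in S8-2x, 6.85 in S16-2x and 6.27 in S24-2x, against 9.33, 9.58 and 10.38 in the 4x hybrids, 10.16 in PG-F9 and 6.95 in 12P. NP7271842 and NP7273710, a BED-type zinc finger and a hAT dimerisation domain, showed the same pattern, with S8-2x at the 4x and PG-F9 level and S16-2x and S24-2x at the 12P level. The log2 difference of NP7253187 was 2.08 (limma adjusted p = 0.0178 over arrays and 0.058 with genotype as a random block), and without S24-2x it was 1.37 and not called. It was also not called without S16-2x (1.66), S48-4x (2.17) or S60-4x (1.77). The 2 lower entries were a Copia protein (NP7268223, log2 difference -1.64, limma adjusted p = 0.00703) and a reverse transcriptase with a chromo domain (NP7271135, -1.58, limma adjusted p = 0.000476), whose mean in the 4x hybrids lay below the background.

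Genes for light harvesting and photosynthesis were higher in the 4x hybrids for 9 of 11 members and lower for none, with a median log2 difference of 1.17, and 7 of the 9 were called with genotype as a random block. The study tabulated 8 of these genes for this comparison. Chlorophyll a/b binding proteins, which hold the antenna pigments of the photosystems, gave 7 of the 9. TC195187, called in all 9 pairs, had means of 12.45, 12.08 and 11.97 in the 2x hybrids and 13.88, 13.76 and 13.46 in the 4x hybrids (log2 difference 1.54, limma adjusted p = 5.57e-05). Subunit II of photosystem I (TC174046), at the docking site of ferredoxin, had means of 12.63, 12.14 and 12.99 against 13.99, 13.85 and 13.80 (1.29, limma adjusted p = 1.1e-05). The parents differed in direction between these entries, with PG-F9 low (11.88) and 12P high (13.996) for TC195187 and PG-F9 high (14.02) and 12P low (12.57) for TC174046. TC199696, the chlorophyll a/b binding protein outside the tabulated genes, was at 12.50, 13.45 and 13.87 (lowest, median and highest) in the 2x arrays and 13.79, 14.35 and 15.15 in the 4x arrays. Its log2 difference of 1.08 (limma adjusted p = 0.00205) fell below the threshold of 1 without S24-2x (0.84) or S29-4x (0.92), and without S24-2x replicate 2 or S29-4x replicate 1 (0.98 each). Lhcp2.2 (TC199557) had a log2 difference of -0.43 and THYLAKOID FORMATION1 (TC182622) of 0.56, and neither was called.

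Lipoxygenases oxidize polyunsaturated fatty acids in the first step toward jasmonate and other oxylipins. Of 12 entries, 10 were higher in the 4x hybrids and none lower, with a median log2 difference of 1.18, and the study tabulated 4 of them. Fewer held with genotype as a random block, where 4 of the 10 were called. The largest log2 difference was that of TC201583, with means of 9.73, 9.56 and 10.02 in the 2x hybrids and 10.98, 11.31 and 11.80 in the 4x hybrids (1.59, limma adjusted p = 8.07e-05). TC185525 was at 5.91, 7.37 and 8.21 (lowest, median and highest) in the 2x arrays and 7.95, 8.54 and 9.59 in the 4x arrays, so that 1 of the 2x arrays lay within the range of the 4x arrays (1.44, SE 0.26, limma adjusted p = 0.00163). TC189247 overlapped more widely, at 6.89, 8.41 and 9.82 in the 2x arrays and 8.34, 9.86 and 10.64 in the 4x arrays. Its log2 difference of 1.41 (limma adjusted p = 0.0153 over arrays) was not called with genotype as a random block (limma adjusted p = 0.18) nor without S16-2x (1.28), S48-4x (1.32) or S60-4x (1.21). Across the 12 entries S29-4x was the lowest of the 4x hybrids, its median lying 0.01 from the mean of the 6 hybrids, against 0.76 in S48-4x and 0.84 in S60-4x. TC177028 and NP7265443 had log2 differences of -0.64 and -0.65 and were not called.

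**Figure D4:**
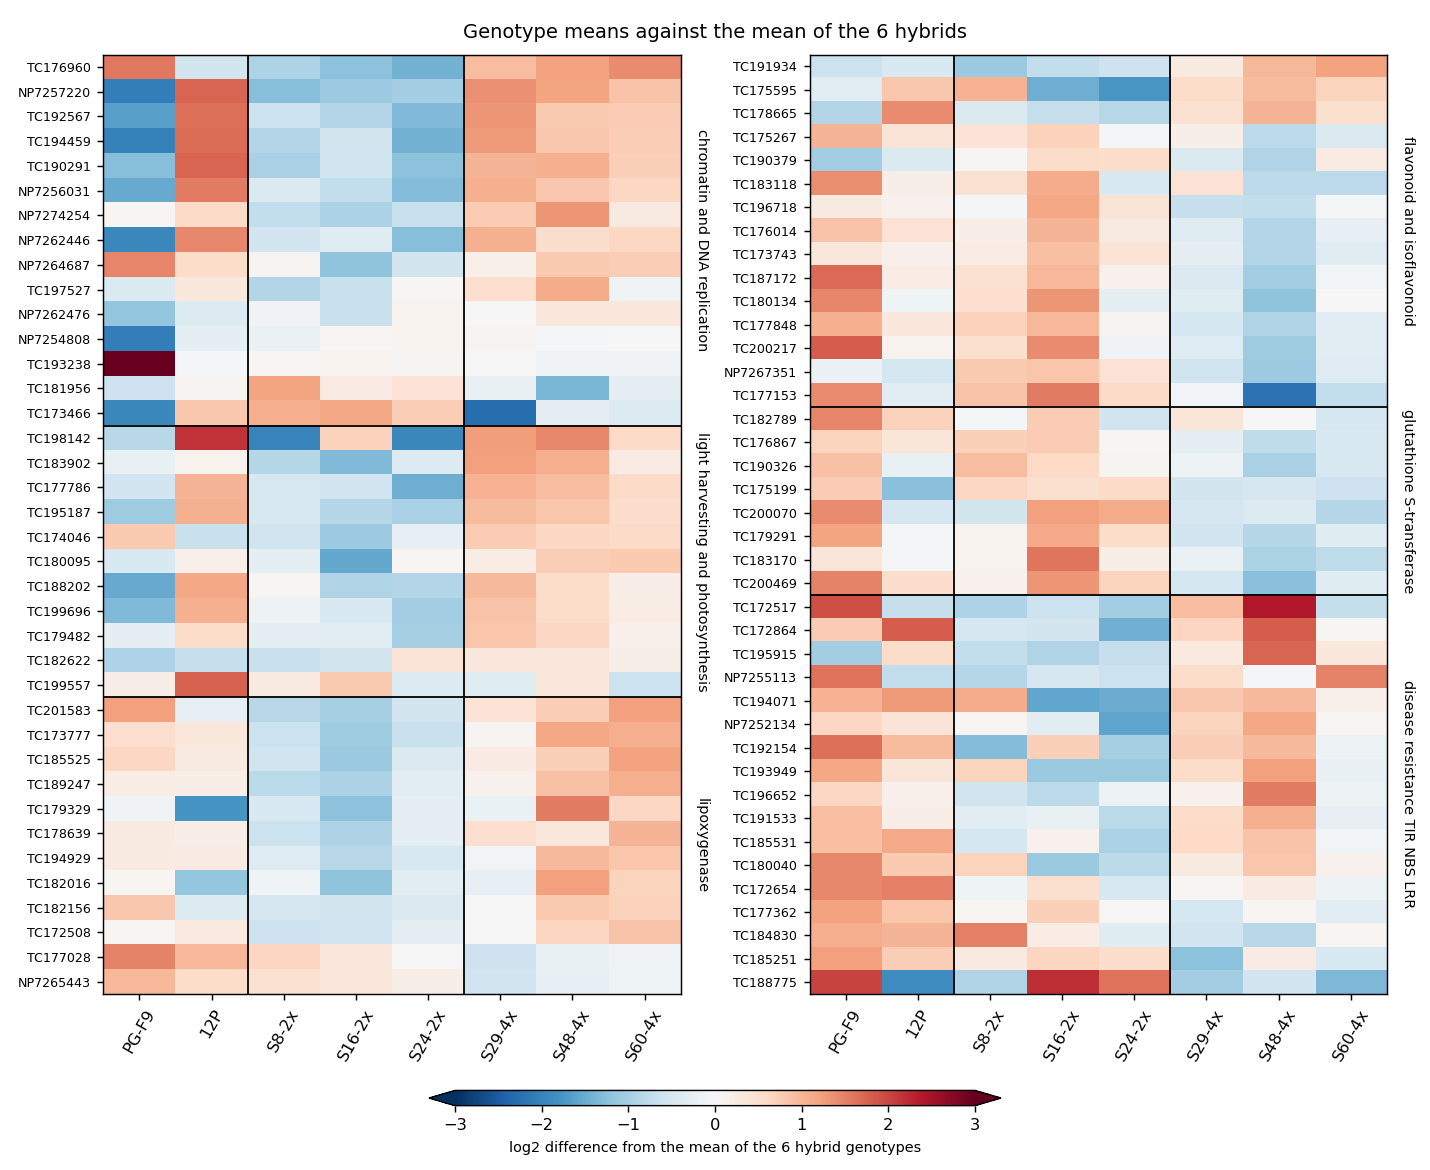
Genotype means of the members of 6 gene groups as log2 differences from the mean of the 6 hybrid genotypes, with 1 row per entry and 1 column per genotype. The lines separate the parents, the 2x and the 4x hybrids, and colours are cut at 3 in either direction. The helicase entries TC192567, TC194459 and TC190291 are low in PG-F9 and the 2x hybrids and high in 12P and the 4x hybrids, and most of the called lipoxygenases are nearer to the mean in S29-4x than in S48-4x and S60-4x.

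Genes of flavonoid and isoflavonoid synthesis, the pathway of the legume phytoalexins and nodulation signals, were mostly lower in the 4x hybrids, with 9 of 15 members lower, 3 higher and a median log2 difference of -1.003. With genotype as a random block, 5 of the 12 were called. Chalcone synthases make the first committed step. NP7267351, a chalcone and stilbene synthase entry, had means of 10.21, 10.27 and 9.88 in the 2x hybrids and 8.84, 8.35 and 9.06 in the 4x hybrids (-1.37, limma adjusted p = 1.73e-05), and its arrays did not overlap. Chalcone synthase 2 (TC187172) and 8 (TC200217) had log2 differences of -1.04 and -1.18 (limma adjusted p = 0.015 and 0.02). Chalcone reductase, which acts with chalcone synthase to give the precursor of the 5-deoxyisoflavonoids, was represented by entries of both directions. TC177153 was at 11.37, 12.57 and 13.09 (lowest, median and highest) in the 2x arrays and 7.90, 10.45 and 11.45 in the 4x arrays, where S48-4x had the lowest mean (9.12). The mean was 4.02 times higher in the 2x hybrids (log2 difference -2.01, SE 0.39, limma adjusted p = 0.00254). TC175595 was higher in the 4x hybrids (1.45, limma adjusted p = 0.0261), but S8-2x, at 13.68, was as high as S48-4x, at 13.60, while S16-2x and S24-2x were at 11.18 and 10.91. Isoflavone synthase 1 (TC196718), the P450 at the entry of the isoflavonoid branch, had a log2 difference of -1.003 (limma adjusted p = 0.00681).

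The other 2 higher members of this group, TC191934 and TC178665, are glycosyltransferases, which attach sugars. The (iso)flavonoid glycosyltransferase TC191934 was at 7.05, 7.43 and 7.98 in the 2x arrays and 8.17, 9.11 and 9.70 in the 4x arrays, without overlap (log2 difference 1.65, SE 0.19, limma adjusted p = 2.65e-05), and both parents, at 7.60 and 7.77, were at the 2x level. Of 8 glycosyltransferases in all, 3 were higher and 1 lower in the 4x hybrids. The triterpene glucosyltransferase UGT73K1 (TC182421), which in M. truncatula glucosylates saponin aglycones, was at 8.17, 8.62 and 9.08 against 9.26, 10.28 and 11.04 (1.54, SE 0.21, limma adjusted p = 0.000145), again without overlap. Of 6 terpenoid genes, 3 were higher and none lower, and 2 of the 3 were called with genotype as a random block. Deoxyxylulose-5-phosphate synthase (TC193598), which starts the plastid pathway to isoprenoids, had a log2 difference of 1.17 (limma adjusted p = 0.000399) that was 0.96 without S16-2x.

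Glutathione S-transferases, which conjugate glutathione to toxic and oxidized compounds, were lower in the 4x hybrids for 7 of 8 entries and higher for none, with a median log2 difference of -1.15, and 5 of the 7 were called with genotype as a random block. TC175199, called in all 9 pairs, had means of 11.67, 11.53 and 11.61 in the 2x hybrids and 10.50, 10.53 and 10.42 in the 4x hybrids (-1.12, limma adjusted p = 7.03e-05). GST 7 (TC200469) was at 7.20, 8.10 and 8.91 in the 2x arrays and 4.97, 6.65 and 7.15 in the 4x arrays (-1.42, SE 0.27, limma adjusted p = 0.0023). TC183170 was at 8.96, 9.41 and 11.07 in the 2x and 7.52, 8.31 and 9.41 in the 4x arrays, with S16-2x (10.71) above the other 2x hybrids (9.20 and 9.30). Its log2 difference of -1.26 (limma adjusted p = 0.0115 over arrays and 0.085 with genotype as a random block) was -0.78 without S16-2x, and the call was also lost without S48-4x (-1.10) or S60-4x (-1.20). TC182789 did not pass the test (-0.09, limma adjusted p = 0.858).

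Of 12 methyltransferases that act on small molecules or proteins, 8 were lower and 2 higher in the 4x hybrids, with a median of -1.03, but with genotype as a random block only 1 was called. The O-methyltransferase TC176985, of a class that methylates phenolic compounds, was at 8.60, 9.85 and 10.64 in the 2x arrays and 6.41, 8.16 and 9.78 in the 4x arrays (log2 difference -1.67, SE 0.38, limma adjusted p = 0.00693 over arrays and 0.1 with genotype as a random block). The carboxyl methyltransferase TC173142 had a log2 difference of 1.77 (limma adjusted p = 0.0333 over arrays and 0.12 with genotype as a random block), with S16-2x (7.45) above S29-4x (6.46). The call was lost without any of 9 single arrays, namely each array of S8-2x or S60-4x, S24-2x replicate 1 and S48-4x replicates 1 and 3, where the difference was between 1.60 and 1.71, and it was also lost without S8-2x (1.11), S24-2x (1.66), S48-4x (1.62) or S60-4x (1.31).

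Cytochrome P450 enzymes, which oxidize hormones and secondary compounds, showed no shared direction, with 3 of 16 higher, 5 lower and a median log2 difference of 0.19, and 4 of the 8 were called with genotype as a random block. TC185121 was at 6.49, 7.61 and 8.39 in the 2x arrays and at 10.11, 10.25 and 10.96 in the 4x arrays. Its 4x mean was 7.08 times the 2x mean (2.82, SE 0.24, limma adjusted p = 9.46e-07 over arrays), with PG-F9, at 10.53, at the 4x level. Over genotype means its limma adjusted p was 0.092. TC184648 was lower in the 4x hybrids (-1.38, limma adjusted p = 0.00818 over arrays and 0.073 with genotype as a random block), with 2x arrays at 11.35, 11.82 and 12.86 and 4x arrays at 9.31, 10.73 and 11.91, and its difference was -0.999 and no longer called without S48-4x.

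Of 30 cell wall genes, 9 were higher and 3 lower in the 4x hybrids (40%, below the share of all annotated genes), with a median log2 difference of 0.52. With genotype as a random block, 7 of the 12 were called. The 9 higher entries are annotated as a glycoside hydrolase of family 28, an extensin, 2 proline-rich proteins, 2 xyloglucan endotransglycosylases, 2 beta-galactosidases and a pectinesterase. NP7271791, of glycoside hydrolase family 28, the family of polygalacturonases, was at 5.07, 5.68 and 6.31 in the 2x arrays, below the background, and at 6.50, 7.85 and 8.45 in the 4x arrays (2.00, SE 0.24, limma adjusted p = 5.47e-05). An extensin (TC202567), a structural protein of the wall, had means of 8.10, 7.64 and 9.45 in the 2x hybrids and 9.63, 10.18 and 10.09 in the 4x hybrids (1.57, SE 0.31, limma adjusted p = 0.00323), and both parents, at 7.92 and 7.81, were at the level of S8-2x and S16-2x. Xyloglucan endotransglycosylases, which cut and rejoin xyloglucan, were higher for TC201503 (1.12, limma adjusted p = 4.8e-05) and TC176289 (1.02, limma adjusted p = 0.00061). Alpha-expansin 4 (TC199551), which loosens walls, was lower (-1.02, limma adjusted p = 0.00023).

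Of 17 entries with a disease resistance, TIR, NBS or LRR annotation, 6 were higher and 1 lower in the 4x hybrids (41.2%, below the share of all annotated genes). Not all of them need be immune receptors, since TC172517 is annotated only as a leucine-rich repeat. The median log2 difference was 1.01, and 3 of the 7 were called with genotype as a random block. S48-4x was the highest of the 4x hybrids, the median of the group lying 0.98 above the mean of the 6 hybrids, against 0.55 in S29-4x and -0.15 in S60-4x. The leucine-rich repeat entry TC172517 shows this, with means of 8.22 in S29-4x, 9.70 in S48-4x and 6.58 in S60-4x against 6.38, 6.64 and 6.26 in the 2x hybrids (1.74, limma adjusted p = 0.0127), and without S48-4x the difference was 0.97 and not called. TC188775, with TIR and AAA ATPase domains, was lower in the 4x hybrids (-1.97, limma adjusted p = 0.0125 over arrays and 0.06 with genotype as a random block), with S16-2x and S24-2x at 9.70 and 9.12, near PG-F9 (9.52), and S8-2x at 6.59, near the 4x hybrids (6.46, 6.92 and 6.14). Its call was lost without S16-2x (-1.35), S24-2x (-1.64) or S60-4x (-1.78).

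Defence proteins were divided, with 10 of 24 members higher and 11 lower in the 4x hybrids, and 5 of the 21 were called with genotype as a random block. Of the 10 higher members, 5 are annotated with the fold of lipid transfer proteins and amylase inhibitors, 2 as proteinase inhibitor 20 and 1 as a Kunitz inhibitor. NP7271046, of that fold, was at 8.93, 9.64 and 10.93 in the 2x arrays and 10.88, 11.53 and 12.03 in the 4x arrays (1.70, SE 0.26, limma adjusted p = 0.00043). Of the 11 lower members, 2 are annotated as glycoside hydrolases of family 17 and 1 of family 18. TC173140, of glycoside hydrolase family 17, the family of the beta-1,3-glucanases, was at 8.33, 9.11 and 10.28 in the 2x arrays and 5.43, 7.30 and 8.26 in the 4x arrays, without overlap (-2.05, SE 0.34, limma adjusted p = 0.000979). The chitinase family 18 entry TC176581 (-1.22, limma adjusted p = 0.019) and a thaumatin-like protein tabulated by the study (TC175139, -2.09, limma adjusted p = 0.0141) were lower as well. Protein kinases, which phosphorylate other proteins, were also divided, with 7 of 16 higher and 7 lower, and 9 of the 14 were called with genotype as a random block. TC182504 was lower, at 9.81, 10.28 and 10.93 in the 2x arrays and 8.49, 8.77 and 9.17 in the 4x arrays (-1.53, SE 0.15, limma adjusted p = 8.12e-06). TC193850 was higher, at 5.95, 7.24 and 8.54 against 8.34, 10.03 and 11.17 (2.52, SE 0.42, limma adjusted p = 0.000951).

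Of 11 heat shock proteins and chaperones, which assist protein folding, 4 were higher and 1 lower in the 4x hybrids, and 2 of the 5 were called with genotype as a random block. An Hsp70 tabulated by the study (TC172620) had the largest log2 difference of all called genes, 4.42 (limma adjusted p = 0.0024), and its means were 11.08 in S29-4x, 6.54 in S48-4x and 12.56 in S60-4x against 5.39, 6.01 and 5.52 in the 2x hybrids. S48-4x was thus near the 2x hybrids, which lay below the background. PG-F9 was at 5.53 and 12P at 12.68. The FKBP-type peptidylprolyl isomerase NP7254958 was at 6.42, 6.69 and 7.15 in the 2x arrays and 7.15, 8.14 and 8.52 in the 4x arrays (1.26, SE 0.19, limma adjusted p = 0.000347). A heat shock protein 70 near the background (TC192121) was at 4.79, 5.15 and 6.62 in the 2x and 5.81, 6.43 and 7.20 in the 4x arrays, and its log2 difference of 1.11 (limma adjusted p = 0.00338 over arrays and 0.057 with genotype as a random block) was 0.97 without S16-2x and 0.98 without S48-4x.

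Transcription factors gave 9 higher and 13 lower entries of 39, with a median log2 difference of -0.79, and 9 of the 22 were called with genotype as a random block. The lower ones included entries named WRKY and MYB, families that regulate defence and phenolic metabolism, among them WRKY27 (TC190654, -1.41, limma adjusted p = 0.0091; TC199390, -1.16, limma adjusted p = 0.0025) and GHMYB9 (TC187368, -1.28, limma adjusted p = 0.000445). The helix-loop-helix protein TC180704, called in all 9 pairs, was at 9.12, 9.71 and 10.68 in the 2x arrays and 6.89, 7.998 and 8.79 in the 4x arrays, 3.69 times higher in the 2x hybrids (-1.88, SE 0.23, limma adjusted p = 7.63e-05), with PG-F9 (10.01) at the level of the 2x hybrids and 12P (8.77) between the 2x and 4x means. The 2 CCAAT-binding entries, a class of promoter-binding subunits, had the largest positive log2 differences, 2.43 for TC178604 and 2.07 for TC177221 (limma adjusted p = 0.00771 and 0.0211), but the 2x hybrids were divided. TC178604 was at 9.64 in S8-2x, as in the 4x hybrids (9.59, 9.90 and 9.66) and PG-F9 (9.52), and at 6.47 and 5.75 in S16-2x and S24-2x, as in 12P (6.29). TC177221 had the same pattern. Without S16-2x neither entry was called (2.02 and 1.48), and the call of TC177221 was also lost with genotype as a random block (limma adjusted p = 0.07) and without S24-2x (1.47), S29-4x (2.07), S48-4x (2.15) or S60-4x (1.99). The MADS-box entry TC200190 was at 4.92, 5.36 and 5.38 in the 2x hybrids, below the background, and at 6.09, 7.25 and 7.24 in the 4x hybrids (1.64, limma adjusted p = 0.000551).

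Among 14 hormone genes 1 was higher and 5 lower in the 4x hybrids, and 3 of the 6 were called with genotype as a random block. ACC oxidase, the last enzyme of ethylene synthesis, had 2 entries, TC183723 with means of 7.88, 8.57 and 7.47 in the 2x hybrids and 6.61, 6.75 and 6.37 in the 4x hybrids (-1.39, SE 0.27, limma adjusted p = 0.00233 over arrays and 0.053 with genotype as a random block, where it was not called) and TC200037, which was not called (1.003, limma adjusted p = 0.051). The gibberellin regulated protein NP7275579 was at 5.49, 6.97 and 7.52 in the 2x arrays and 7.70, 7.89 and 8.87 in the 4x arrays (1.17, limma adjusted p = 0.00323), and its difference was 0.85 without S16-2x.

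Of 20 transporters, 7 were lower and 2 higher in the 4x hybrids (45%, below the share of all annotated genes). Each of these 9 lost its call when some genotype was left out. With genotype as a random block, 3 of the 9 were called. The higher ones were an aquaporin of the NIP type (TC176562, 1.28, limma adjusted p = 0.00321, 0.98 without S29-4x) and a sulfate transporter (TC196796, 1.20, limma adjusted p = 0.0046). The lower ones are annotated as carriers or channels of nitrate, sulfate, peptides, metals, nucleotides and chloride. TC191987 is annotated as an intracellular chloride channel, a function not tested here. It was at 8.98, 10.67 and 11.82 in the 2x arrays and 8.44, 9.27 and 10.42 in the 4x arrays (-1.35, limma adjusted p = 0.0101 over arrays and 0.11 with genotype as a random block), and was not called without S16-2x (-0.98) or S60-4x (-1.20).

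Of 10 starch and sugar genes, 3 were higher and 1 lower, and 2 of the 4 were called with genotype as a random block. Glucose-1-phosphate adenylyltransferase (TC202057), which makes ADP-glucose for starch, was at 10.53, 10.97 and 11.79 in the 2x arrays and 11.78, 12.42 and 12.51 in the 4x arrays (1.14, SE 0.17, limma adjusted p = 0.000335), and its difference was 0.92 without S16-2x. Phosphoglucomutase (TC193937), which interconverts glucose phosphates, was called at 1.09 (limma adjusted p = 0.0179 over arrays and 0.087 with genotype as a random block), but S16-2x and S24-2x (8.99 each) were level with S29-4x (8.97). Its call was lost without S8-2x (0.70), S48-4x (1.05) or S60-4x (0.77), and without S8-2x replicate 1 (0.98), S8-2x replicate 3 (0.96) or S60-4x replicate 2 (0.94). Sucrose synthase (TC192375), which cleaves sucrose, was lower (-1.05, limma adjusted p = 9.2e-06).

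Alternative oxidases, which pass electrons to oxygen in mitochondria without pumping protons, were divided, with 1 of 6 entries higher and 2 lower. None was called with genotype as a random block. TC201342 had means of 6.98, 7.02 and 8.59 in the 2x hybrids and 8.76, 8.89 and 9.18 in the 4x hybrids (1.42, limma adjusted p = 0.00563), and was not called without S16-2x (1.16). TC201537 had means of 9.26, 8.80 and 7.65 against 6.39, 7.63 and 7.96 (-1.25, limma adjusted p = 0.0162), so that S24-2x and S48-4x were level, and was not called without S8-2x (-0.90), S16-2x (-1.13) or S29-4x (-0.78). For ribosomal and translation proteins the share called was 22.2%, below that of all annotated genes, with 2 of 9 members lower (ribosomal proteins L23, TC186313, -1.23, and L37a, TC186572, -1.05; limma adjusted p = 0.00207 and 0.0216) and none higher. The largest difference of either sign was that of ribosomal protein L30 (TC176866), 1.74, which was not called (limma adjusted p = 0.053). The call of L37a was lost with genotype as a random block (limma adjusted p = 0.14), without S8-2x replicates 2 or 3, S16-2x replicate 1, S24-2x replicate 1 or any array of S60-4x (-0.93 to -0.99), and without S8-2x (-0.84), S24-2x (-0.97) or S60-4x (-0.68).

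Of 10 nodulin entries, proteins first described from root nodules, 4 were higher and 1 lower in the 4x hybrids, and 2 of the 5 were called with genotype as a random block. Besides TC186166 these were early nodulin 10 (TC193898, 1.35, limma adjusted p = 0.0109), a nodule-specific glycine-rich protein (TC192759, 1.08, limma adjusted p = 0.00531), a senescence-associated nodulin (TC188008, 1.02, limma adjusted p = 0.0028) and MtN5 (TC180317, -1.10, limma adjusted p = 0.016). Early nodulin 10 was near the background in most arrays, at 4.78, 5.62 and 6.16 in the 2x arrays and 5.57, 6.95 and 8.52 in the 4x arrays, and was not called with genotype as a random block (limma adjusted p = 0.084) nor without S16-2x (1.24), S29-4x (1.17) or S48-4x (0.999). Early nodulin 12B, high in the hybrids and in PG-F9 (11.45) and at 5.21 in 12P, had a log2 difference of 0.41 and was not called.

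Genes without overlap between the ploidy levels and with an annotated function were also ranked by the size of the difference. The tabulated genes were left out, but members of the groups above were not. Genes of this ranking not described above follow, among them TC184751, already counted with the protein kinases. The transcriptional coactivator and pterin dehydratase entry NP7266737 was at 5.03, 5.33 and 5.93 in the 2x arrays, below the background, and at 8.01, 8.18 and 9.47 in the 4x arrays (3.14, SE 0.21, limma adjusted p = 5.34e-08 over arrays). Over genotype means its limma adjusted p was 0.092. PG-F9 was at 4.96 and 12P at 9.15. The plasma membrane ATPase 9 (TC176268), a proton pump, had means of 9.19 in S8-2x, 6.50 in S16-2x and 6.28 in S24-2x, against 10.03, 9.85 and 10.18 in the 4x hybrids (2.69, SE 0.44, limma adjusted p = 0.000834). S8-2x was thus nearer to the 4x hybrids than to its 2x sibs, and both parents were high, at 9.43 and 9.91. Over genotype means the limma adjusted p of TC176268 was 0.28. A class 3 lipase (TC176361), which hydrolyses acyl lipids, was at 6.82, 7.99 and 9.66 against 9.78, 10.52 and 10.73 (2.35, SE 0.30, limma adjusted p = 9.85e-05). A beta-primeverosidase (TC193654), in tea an enzyme that frees aroma alcohols from glycosides, was at 7.81, 9.04 and 10.31 against 10.52, 10.71 and 12.16 (2.03, SE 0.36, limma adjusted p = 0.00146).

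The lowest log2 difference of this ranking was that of a RING-type zinc finger protein (NP7268164), a domain of many ubiquitin ligases, at 8.28, 8.65 and 9.10 in the 2x arrays and 4.63, 6.66 and 7.64 in the 4x arrays (-2.37, SE 0.39, limma adjusted p = 0.000801). PG-F9, at 4.72, was as low as S48-4x (4.80), and 12P, at 9.89, was above the 2x hybrids. A serine carboxypeptidase (TC185396) was at 11.17, 11.78 and 12.27 in the 2x arrays and 7.37, 10.14 and 10.44 in the 4x arrays (-2.08, SE 0.38, limma adjusted p = 0.00168), with S29-4x (8.38) near PG-F9 (8.79) and the 2x hybrids near 12P (11.49). An EF-hand protein (TC201281), a calcium-binding fold, was at 7.37, 8.03 and 8.71 against 5.17, 5.98 and 7.04, the 4x mean lying below the background (-1.99, SE 0.23, limma adjusted p = 4.12e-05). A protein kinase with a lectin domain (TC184751) was at 8.13, 8.57 and 8.99 against 5.73, 6.22 and 7.82 (-1.93, SE 0.28, limma adjusted p = 0.000247).

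The remaining lower entries of this ranking differed by less. The carbamoyl-phosphate synthase and ANTH domain entry TC188699 was at 9.002, 9.46 and 9.73 against 7.04, 7.85 and 8.31 (-1.66, SE 0.18, limma adjusted p = 1.54e-05), and it was called in all 9 pairs. The OB-fold entry TC192461, of a nucleic acid-binding fold, was at 7.81, 8.26 and 9.03 against 5.03, 6.83 and 7.76 (-1.65, SE 0.30, limma adjusted p = 0.00181). The pentatricopeptide repeat protein NP7269402, of a family that binds organelle RNA, was at 10.61, 10.77 and 10.99 against 8.26, 9.48 and 10.005 (-1.47, SE 0.21, limma adjusted p = 0.000199). Its 2x arrays spanned a much narrower range than its 4x arrays.

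The parents were set beside the hybrids without a test. Among the 342 genes higher in the 4x hybrids, the 4x mean lay above both parental means for 209 (61.1%) and the 2x mean below both for 148 (43.3%). Among the 269 lower genes, the 4x mean lay below both parents for 183 (68%) and the 2x mean above both for 108 (40.1%). Over all genes tested, the 4x mean lay above both parents for 25.7% and below both for 30.1%, and the 2x mean below both for 25.8% and above both for 21%. Called genes have a 4x and a 2x mean that are apart by the rule of the call, which by itself moves these shares from those of all genes. The median difference from the parental mean was 0.92 in the 4x and -0.49 in the 2x hybrids for the higher genes, and -0.82 and 0.43 for the lower genes.

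**Figure D5:**
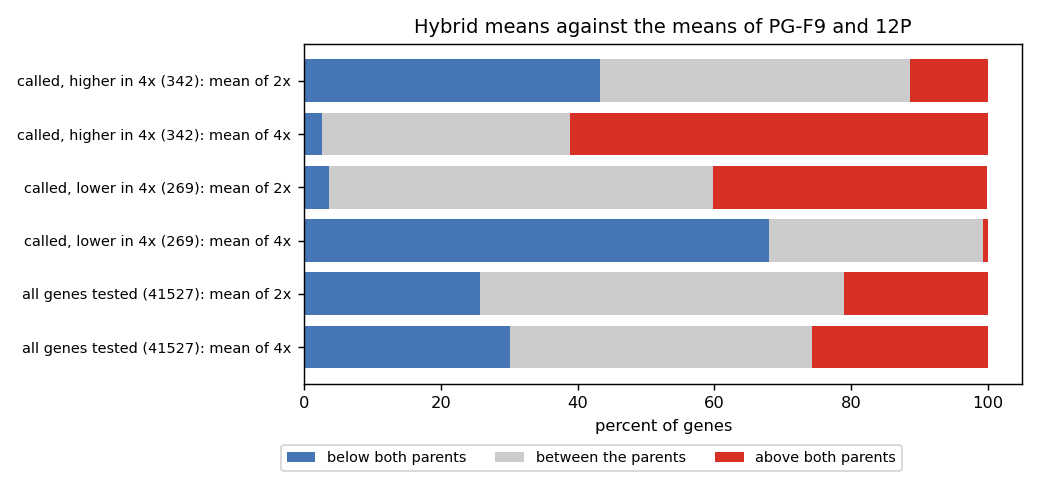
Percent of genes whose 2x or 4x hybrid mean lay below, between or above the means of PG-F9 and 12P. For genes higher in the 4x hybrids the 4x mean was above both parents in 61.1%, and for lower genes below both in 68%, against 25.7% and 30.1% of all genes tested.

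The parents themselves differed by more than 1 on the log2 scale for 153 of the 342 higher genes (44.7%), for 142 of the 269 lower genes (52.8%) and for 4950 of all genes (11.9%). They did so for 31 of the 38 genes called in all 9 pairs (81.6%), and for all 31 the 2x mean was nearest to one parent and the 4x mean to the other, with the 4x mean nearer to PG-F9 for 11 and nearer to 12P for 20. The 5 helicase entries called in all 9 pairs and NP7266737 are of the latter kind, and TC172909 and TC176960 of the former. Among all called genes with such parents, the nearest parent differed between the ploidy levels for 123 of the 153 higher genes and 107 of the 142 lower genes, compared with 1686 of the 4950 genes overall (34.1%), again shares that the rule of the call itself moves. Whether the alleles each seedling drew from a parent, the ploidy or both give these positions was not tested.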

How the data were processed

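One-colour (Cy3) NimbleGen arrays were hybridized with 1 RNA sample each. Intensities were deposited by the authors without log transformation, quantile normalized across arrays, with the probes of a gene summarized by RMA. Samples were grouped by their labels. The 11 negative control entries were left out, the intensities of 41527 genes were transformed to log2, and no filter was applied. The 9 arrays of the 2x and the 9 of the 4x hybrids were tested against each other without covariates by lmFit and eBayes of limma 3.58.1 (R 4.3.3), as the study's methods name it, and again with genotype means or with genotype as a random block (correlation 0.34). Pairs of hybrids were contrasts in a fit of 6 genotype means. Benjamini-Hochberg adjustment of p-values covered all genes tested. Genotype means of named genes were also compared with exact permutation tests. Python 3.11.15, pandas 2.3.3 and matplotlib 3.10.9 were used for tables and plots. The fits were run on simulated data with planted differences. The check required that the fit over arrays recovered most of them without spread among genotypes, and that no fit reversed a sign. False calls under spread among genotypes were not part of the check.

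Genes were named by rule: (a) all called with genotype means, (b) of the annotated, called genes without overlap of arrays and outside the study's table for this comparison, the 10 highest and 10 lowest differences, and (c) in each of 22 gene groups the 2 called members outside that table with the largest difference, 56 genes in all. Other genes are named as examples, chosen after their values were seen. Annotations were taken from the study's gene lists, and the RefSeq gene table used here matched 0 of 41527 entries, so that no sequence is shown. The members and lists were chosen with earlier results of these data known. Alternatives were other scalings, a filter, a floor at the 5th percentile, other fits, and leaving out each array or genotype. The number of arrays and genotypes limits the precision.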

Additional observations from a re-analysis of the deposited data

Results flagged for a closer look

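In 112 groups of 9 arrays (the 2x and the 4x arrays of each of the 56 named genes), 5 held an array far from the others by Dixon's ratio, the gap to the nearest array over the whole range. For independent arrays chance gives about 1 in 20 groups. The 9 arrays here are 3 of each of 3 genotypes and not independent, so that the 5 groups cannot be set against that rate. In the 4x hybrids, S48-4x replicate 2 was highest for the extensin TC202567, at 11.13 against 10.15 for the next array (ratio 0.589), and lowest for GST 7 (TC200469), at 4.97 against 6.37 (0.642). S29-4x replicate 2 was lowest for deoxyxylulose-5-phosphate synthase (TC193598), at 8.58 against 9.16 (0.557). In the 2x hybrids, S16-2x replicate 3 was lowest for NP7255911, at 10.08 against 10.56 (0.538), and S24-2x replicate 1 was highest for the heat shock protein 70 TC192121, at 6.62 against 5.61 (0.555). All 5 genes stayed called in the comparison over arrays without the array concerned.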

How the results depend on the processing

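Over arrays, the 611 calls became 6116 without a threshold on the log2 difference (2765 higher and 3351 lower in the 4x hybrids), 318 with genotype as a random block and 1070 without S24-2x. They were within 1.5 times of 611 under the other settings run, and between 502 and 782 when 1 array was left out. The 147 genes without overlap became 331, 242, 559, 278 and 290 without S8-2x, S16-2x, S24-2x, S29-4x and S60-4x, respectively, where fewer arrays had to be apart, and were between 141 and 230 (without S24-2x replicate 3) when 1 array was left out. The 38 genes of all 9 pairs became 142 without the log2 threshold and were between 30 and 39 when 1 array was left out.

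The 6 calls over genotype means became 2 after a second quantile normalization, 3 without the third of genes with the lowest mean, 0 with a floor at the 5th percentile, 15 with the trend and robust options of eBayes, 2 without S24-2x, and 0 without S16-2x, S29-4x or S48-4x. Leaving out 1 array gave between 0 (S48-4x replicate 3) and 7 genes, with 1 gene without S8-2x replicate 1, S16-2x replicate 2, S24-2x replicate 1 or S29-4x replicate 3 and 3 without S24-2x replicate 2. The cause was not tested.

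Residuals of arrays with the same replicate number had a mean correlation of -0.02 (45 pairs, -0.32 to 0.30). Those of other arrays had 0.01 (90 pairs, -0.41 to 0.27). Residuals cancel out within a genotype, so that both means depend on each other. They show no pairing by replicate number on average, and other batches were not tested. The replicate block gave 581 calls. Of the 56 named genes, 16 lost their call with genotype as a random block and 4 to 14 without 1 genotype, and none changed direction under any setting. The median difference of all genes was between -0.0107 and -0.0054 under the scalings.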
